A study of Rattus norvegicus with 30 samples.

Results

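The regions described here are 2347 stretches of the rat genome of exactly 20000 bp that were deposited as quantification targets beside the annotated transcripts. They were chosen by their level: off chromosomes X and Y, averaging 1 CPM or more across the 30 libraries, and not among the 200 intervals of highest mean. CPM here is the estimated count of a target divided by the total estimated count on Ensembl transcripts of the same library, times 1e+06. The deposited tables held 25095 genomic intervals, of which 13939 were 20000 bp long. None was longer, and 13112 of the 20000-bp intervals lay off X and Y. The members were therefore 17.9% of the 20000-bp intervals off X and Y and 9.35% of all intervals.

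The libraries came from kidneys of 30 Sprague-Dawley rats, 5 in each of 6 groups. Animals received mercuric chloride (HgCl2) at 0.25 mg/kg, called the low dose here, or at 0.50 mg/kg, the high dose, or saline at 1 ml/kg, and kidneys were taken at 10 h or 34 h. Whole frozen kidneys were powdered before RNA extraction and poly-A RNA was sequenced, per the labels' protocols, so each value is a mixture over all cell types of the organ, in which fewer cells of a type and less RNA per cell cannot be told apart. The labels give neither the sex nor the age of the animals. Replicate numbers follow deposit order and are only names. Markers of kidney could not be looked up, because the tables name transcripts by identifier with no gene name.

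Mercuric chloride is a nephrotoxic metal salt known for injuring the straight part of the proximal tubule. Reads outside annotated transcripts in poly-A libraries can come from unannotated exons, transcript ends that run past the annotated ends, long noncoding RNAs, unspliced precursor RNA or repeated sequence, and such a read does not say which of these it came from. Rnor_6.0, the build named in the submitters' processing notes, is the build of all coordinates given below. Neither its sequence nor its annotation was used here, so no gene, exon or strand is assigned to any interval.

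Libraries held 20.2 M to 39.1 M counts (M is 1e+06) on transcripts. All intervals together took 5.82% to 9.23% of the counts of a library, and the members took 0.993 to 1.27 counts per 100 counts on transcripts in 29 libraries and 0.687 in the other one, replicate 4 of the high dose at 34 h. A member had a median of 65.4 estimated counts per library, and 2335 of the 2347 had a count above 0 in all 30 libraries. Their counts were seldom whole: 2068 members (88.1%) had a whole count, within 1e-06, in no library, and 1 member had whole counts in all 30. Among transcripts of at least 1 CPM, 40.5% were whole in all libraries, and among shorter intervals of at least 1 CPM 9.35% were. A fractional count means that read pairs matching several targets were divided among them, so the level of most members depends in part on that division.

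Levels were low and skewed. These levels chose the members and are given as description only. The mean level ran from 1.00 to 49.2 CPM with a median of 2.20 CPM and quartiles of 1.40 and 4.48 CPM. There were 526 members of at least 5 CPM, 262 of at least 10 CPM and 21 of at least 40 CPM. The 235 highest members held 46.2% of the summed level. Over all 13112 intervals of this length the median was 0.257 CPM, 3265 lay under 0.1 CPM, and 126 had no count in any library.

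The 3 highest members were chr14:86713752-86733751 at 49.2 CPM, chr6:11064969-11084968 at 48.9 CPM and chr9:43545865-43565864 at 48.6 CPM. Just above the upper limit lay 3 shorter intervals of the 200 set aside, chr5:156878987-156897142, chr13:90753082-90758759 and chr7:121030255-121049801, at 49.3, 49.3 and 49.4 CPM. At the lower limit, members chr17:15166957-15186956, chr20:10733464-10753463 and chr10:64131743-64151742 had means of 1.00 CPM each. The 3 intervals of this length just under it, chr19:43911807-43931806, chr17:20066855-20086854 and chr7:120437726-120457725, had means of 0.9996, 0.9994 and 0.9994 CPM. The lower limit thus passes between intervals with nearly equal levels. Of the 200 intervals set aside, 44 were 20000 bp long.

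The rule fixes the length and limits the level, so the level per base follows from it and is a description. The median TPM of members, which divides the count by length, was 0.127, against 0.575 for the 3218 shorter intervals of at least 1 CPM that were not among the 200, and 9.17 for transcripts of at least 1 CPM. Intervals of 20000 bp reached 1 CPM less often than shorter ones, 2391 of 13112 (18.2%) against 3374 of 10783 (31.3%), although CPM does not correct for length.

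The members lay on all 20 numbered autosomes, with 7 on unplaced scaffolds. The share of 20000-bp intervals that were members was 13.6% on chromosome 16, 28.1% on chromosome 10, 26.9% on chromosome 12 and 23.7% on chromosome 20, with a median of 17.3% over the 20 chromosomes.

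No deposited intervals touched. Over 25032 pairs of intervals next to each other on a chromosome or scaffold, the smallest gap was 1049 bp and the median 44100.5 bp, and 1825 gaps (7.29%) were under 3000 bp. The most common gaps were 1939 bp in 33 pairs, 1936 bp in 29 and 1933 bp in 27. Adjacency was therefore taken as order: 2 members were counted as consecutive when no other deposited interval lay between them.

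Members had closer neighbours than the intervals that fell short of the limit. The nearest interval lay at a median of 33967 bp from a member, and at 55822 bp from the 10721 intervals of 20000 bp under 1 CPM. It lay within 20000 bp for 756 of 2347 members (32.2%) and for 2204 of those 10721 (20.6%). Neighbours also shared levels more often: the next interval reached 1 CPM for 793 of 2386 intervals of 20000 bp at or above 1 CPM (33.2%), against 1859 of 10693 below it (17.4%). With the next interval also 20000 bp long, the shares were 25.7% and 12.8%. No test was made of these shares, because the level chose the members.

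Most members stood alone. The next interval was a member for 313 of 2342 members that had one (13.4%), was under 1 CPM and 20000 bp long for 939 (40.1%), and was 1 of the 200 highest for 44 (1.88%). There were 1769 single members, 224 runs of 2, 35 of 3, 5 of 4 and 1 of 5. The levels of consecutive members were only weakly alike, with a Spearman rho of 0.149 over 313 pairs whose points share libraries.

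The run of 5 lay on chromosome 20 over 686760 bp and joined members of unequal level. Its members chr20:19938305-19958304, chr20:20058715-20078714, chr20:20489828-20509827, chr20:20538372-20558371 and chr20:20605065-20625064 had means of 2.25, 6.49, 1.76, 1.51 and 7.77 CPM. The largest gap inside it was 411113 bp and the smallest 28544 bp. The runs of 4 with the highest sums began at chr10:95436895-95456894 with 26.0 CPM, chr9:49069190-49089189 with 1.13 CPM, chr14:86000274-86020273 with 3.06 CPM and chr20:27900511-27920510 with 2.01 CPM. Within the chromosome 9 run the fourth member, chr9:49486034-49506033, had 20.005 CPM, while the 4 members of the second chromosome 20 run lay at 1.60 to 2.78 CPM.

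Summed over all members, the level differed little between groups, apart from 1 library. In the saline group at 10 h the 5 libraries had 10544, 11507, 11153, 11626 and 10520 CPM. The low dose at 10 h had 10817, 11498, 12160, 10828 and 12708 CPM. High-dose libraries at that time had 11802, 10555, 11327, 11141 and 11766 CPM. These 3 groups overlapped.

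At 34 h the saline libraries had 10917, 9933, 11182, 10759 and 10953 CPM. The low dose had 11808, 11264, 10406, 11170 and 11650 CPM. Those of the high dose had 11365, 11117, 11182, 6870 and 11233 CPM. Replicate 4 of the high dose was the lowest of the 30 libraries, and the other 29 lay between 9933 and 12708 CPM. The group mean of the high dose at 34 h was 10353 ± 1950 CPM (SD, n = 5), or 96.3% of the saline mean of 10749 ± 481 CPM (SD, n = 5). Without replicate 4 it was 11224 ± 105 CPM (SD, n = 4), or 104% of saline. The low dose was at 105% of saline at both times and the high dose at 10 h at 102%, each within the spread of the libraries.

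**Figure D1:**
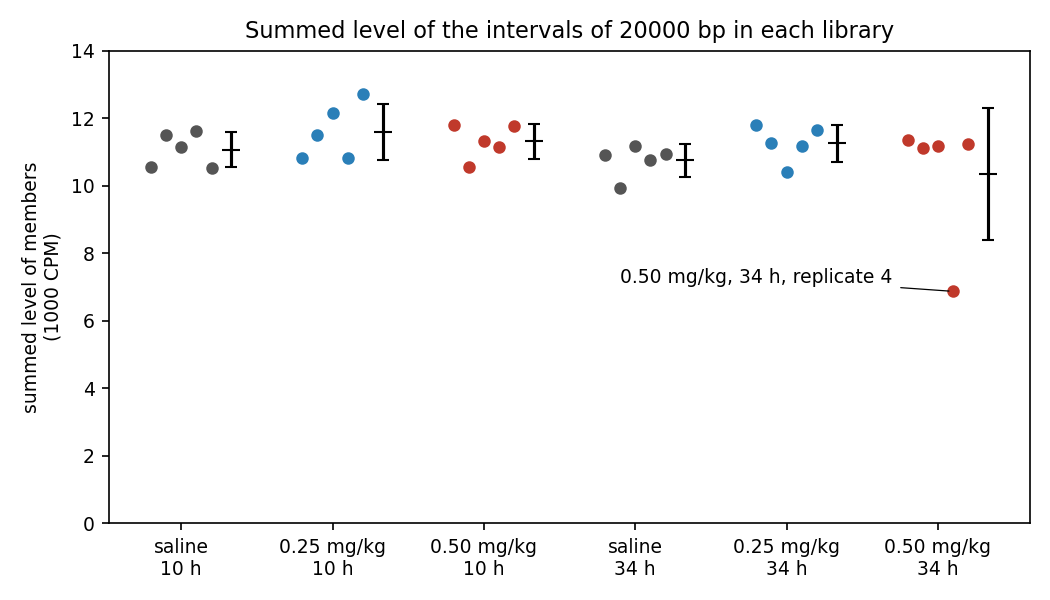
Summed level of the members (vertical axis, 1000 CPM, from 0) in each of the 30 libraries, by group. Points are libraries and the bars beside them are the mean and SD of the 5; the point at 6870 CPM in the last group is replicate 4 of 0.50 mg/kg at 34 h, below all the others.

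The shortfall of replicate 4 of the high dose at 34 h was spread over the members rather than held by a few. Against the mean of the other 4 libraries of its group, the median member differed by -0.67 in log2(CPM + 0.5). Of 2347 members, 2152 (91.7%) were lower. The medians were -0.67, -0.68, -0.68 and -0.60 for members of 1 to 2, 2 to 5, 5 to 10 and 10 to 50 CPM. The added 0.5 CPM shrinks such differences most at low levels. Near-equal medians thus go with a larger relative drop in CPM at the lower levels. The median CPM over the members was 1.16 in replicate 4, against 2.18 to 2.30 in the other 4 libraries. In 1265 members (53.9%) replicate 4 was the lowest of the 30 libraries, and in 128 it lay more than 2-fold below every other library.

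The same library was also low in the 20000-bp intervals under 1 CPM. These summed to 1336 CPM in it, against 2787 to 2966 CPM in the rest of its group. The library was less extreme in the classes that follow. Its median difference from the other 4 was -0.46 for shorter intervals of at least 1 CPM, -0.10 for transcripts of at least 1 CPM and 0.02 for the 200 highest intervals. Those 200 summed to 71623 CPM in it, against 23545 to 31034 CPM in the rest of its group, and it had the largest share of all counts on intervals (9.23%). Depth did not set it apart, with 33.4 M counts on transcripts. The member with the highest level in any library, chr3:102594467-102614466, moved the other way: it had 316 CPM in this library, 188 CPM in replicate 4 of saline at 10 h, 81.5 CPM in replicate 3 of saline at 34 h and 15.1 to 43.6 CPM in the other 27. The same 3 libraries had the highest sums over the 200 highest intervals, with 71623, 53108 and 38599 CPM.

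The spread within groups was mostly moderate. As the SD of log2(CPM + 0.5) about the group means, it had a median of 0.31 over the members, with 5% of them below 0.18 and 5% above 0.63. Counting error alone, computed without the added 0.5 CPM at the mean count of each member, would give a median of 0.18. By this measure 981 members (41.8%) had more than 2 times their counting SD. The added 0.5 CPM shrinks the observed SD, most at low levels, so this comparison is approximate. At 1 to 5 CPM the median SD was 0.31 for members, 0.27 for shorter intervals and 0.34 for transcripts. At 5 to 50 CPM it was 0.30, 0.21 and 0.20, so the spread of the members, unlike that of the other kinds of target, was nearly as large at high as at low levels.

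The steadiest members were chr4:10206753-10226752 with an SD of 0.09 and 14.8 to 19.5 CPM over all libraries, chr1:204913277-204933276 with 0.10 and 14.2 to 21.4 CPM, and chr5:76998692-77018691 with 0.11 and 17.3 to 27.0 CPM. At the other end, 33 members had an SD above 1. The largest, 1.87, was that of chr8:100191733-100211732, which had 37.3, 26.6 and 64.4 CPM in replicates 1 to 3 of the low dose at 10 h, 88.5 CPM in replicate 2 of the high dose at 10 h and 32.9 CPM in replicate 3 of the high dose at 34 h. In the other 25 libraries, saline included, it had 0.147 to 3.64 CPM. All 5 high libraries were from treated animals, of both doses and both times, while the other 15 treated libraries were at or under 3.64 CPM. Its mean over the saline libraries was 0.615 CPM, so it reached the rule's limit only through treated animals.

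The 4 members of next largest SD also varied widely from animal to animal. They were chr1:12989291-13009290 with 0.126 to 16.7 CPM, chr13:71556080-71576079 with 1.96 to 86.2 CPM, chr17:57875928-57895927 with 1.43 to 102 CPM and chr5:25287654-25307653 with 0.340 to 24.5 CPM. In each of them the saline group alone spanned much of the range. At 10 h the saline libraries had 10.5, 10.8, 5.31, 0.717 and 16.7 CPM for the chromosome 1 member. For the chromosome 17 member they had 15.2, 4.96, 6.25, 60.6 and 81.6 CPM. The chromosome 17 member had whole counts in 20 libraries, more than most members.

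In some members 1 library stood far from the other 29. For chr12:22613123-22633122 replicate 5 of saline at 10 h had 40.0 CPM and the others at most 4.61 CPM. For chr4:61736464-61756463 replicate 2 of the high dose at 10 h had 55.9 CPM and the others at most 7.17 CPM. For chr12:7379081-7399080 that same library had 0.00619 CPM and the others 2.89 to 9.76 CPM. Replicate 2 of the high dose at 10 h had 19 members more than 2-fold above all other libraries, and replicate 3 of the high dose at 34 h had 6 above and 19 below.

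Neighbouring members varied together slightly more than members far apart. Pearson's r of log2(CPM + 0.5), centred within groups, had a median of 0.28 over the 313 consecutive pairs and 0.20 over 2588097 pairs on different chromosomes. All pairs share the same 30 libraries and their depths, and each member enters many pairs, so these values carry no p. The median was 0.35 for the 52 pairs less than 20 kb apart, 0.26 for 136 pairs at 20 to 50 kb, 0.24 for 223 pairs at 50 to 100 kb and 0.20 for 20792 pairs at 1000 to 10000 kb. Among consecutive pairs 72 (23.0%) had an r of at least 0.5, against 10.7% of pairs on different chromosomes.

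Much of this common level of correlation rested on 1 library. Without replicate 4 of the high dose at 34 h the medians were 0.16 for consecutive pairs and 0.07 for different chromosomes, and 0.17 under 20 kb. With each library divided by its total over members instead, they were 0.11, 0.01 and 0.16. The difference between consecutive pairs and pairs on different chromosomes stayed near its first value of 0.08, at 0.09 without that library and 0.10 with the division.

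**Figure D2:**
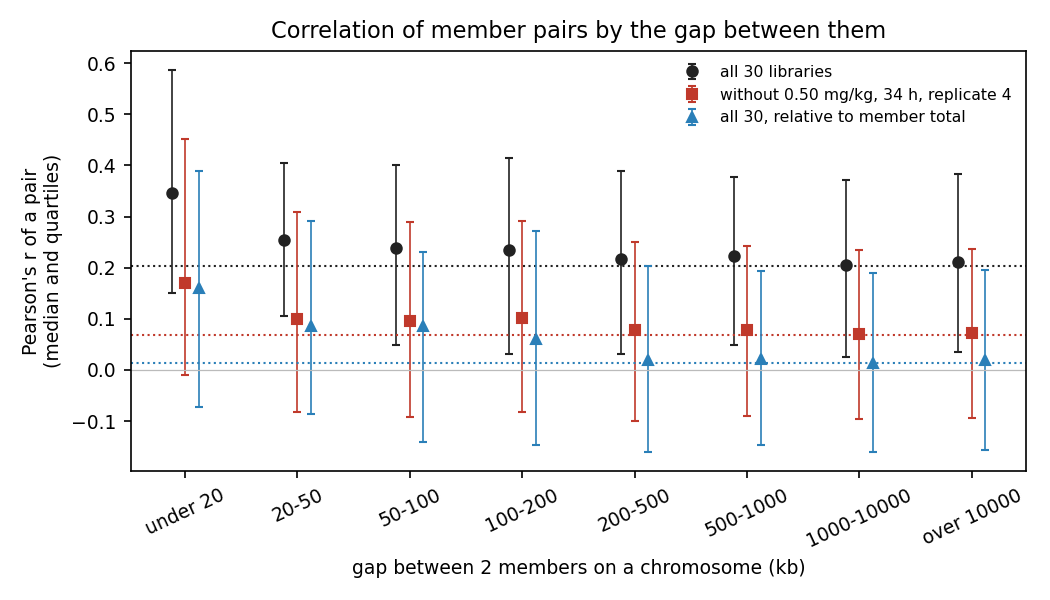
Pearson's r of member pairs on a chromosome (vertical axis, medians with quartiles) by the gap between the members (horizontal axis, kb), over all 30 libraries, without replicate 4 of 0.50 mg/kg at 34 h, and with each library divided by its total over members. Dotted lines are the medians for pairs on different chromosomes, 0.20, 0.07 and 0.01; pairs under 20 kb apart lie highest in all 3.

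The highest consecutive pair was on chromosome 13, chr13:71556080-71576079 and chr13:71626327-71646326, with an r of 0.95 over 30 libraries. The next member, chr13:71772479-71792478, had an r of 0.88 with the second, and the 3 lay within 236399 bp. In saline at 10 h they had 5.17, 39.8, 30.0, 8.08 and 3.77 CPM for the first, 0.898, 2.79, 2.67, 1.84 and 0.777 CPM for the second and 0, 2.42, 1.84, 0.482 and 0.0353 CPM for the third. Replicates 2 and 3 were high in all 3 members and the others low.

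In the high dose at 10 h the first had 34.1, 20.02, 80.2, 56.1 and 31.1 CPM. In the low dose at 10 h it had 2.70, 2.13, 17.4, 86.2 and 6.96 CPM, and in the high dose at 34 h 3.09, 39.0, 7.29, 1.96 and 36.2 CPM. High and low animals thus occurred in saline and in treated groups, though the 5 libraries of the high dose at 10 h were all at 20.02 CPM or more. The r of the highest pair was 0.96 without the 4 libraries that earlier results of these data set apart (replicate 2 of saline and of the high dose at 10 h, and replicates 3 and 4 of the high dose at 34 h).

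The second highest consecutive pair, chr7:23090484-23110483 and chr7:23317752-23337751, had an r of 0.91, and 0.83 without those 4 libraries. Both were lowest in replicate 4 of the high dose at 34 h, with 1.39 and 1.72 CPM. Some consecutive members moved in opposite directions, though no more often than members far apart. An r below 0 was seen in 58 of the 313 consecutive pairs (18.5%), against 21.6% of pairs on different chromosomes. The pairs that follow are those of lowest r. The lowest r was -0.54 for chr12:995542-1015541 and chr12:1318065-1338064, and -0.61 without the 4 libraries. For chr16:48027753-48047752 and chr16:48262671-48282670 it was -0.36, and -0.50 without the 4 libraries. For chr1:225904225-225924224 and chr1:225981697-226001696 it was -0.41, but -0.12 without the 4 libraries.

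Most strongly covarying pairs lay on different chromosomes, as most pairs of members do. An r of at least 0.9 was seen in 366 pairs among 131 members. Of these pairs, 46 (12.6%) were on 1 chromosome, against 5.99% of all 2753031 pairs. Such an r was seen in 2 of the 313 consecutive pairs and in 320 of the 2588097 pairs on different chromosomes. It was thus more frequent among neighbours, though only 2 consecutive pairs had it. Of the 366, 18 also had it without the 4 libraries. The largest linked set held 79 members on 18 chromosomes and was lowest in replicate 4 of the high dose at 34 h, where it summed to 238 CPM against 771 to 1067 CPM in the other 29 libraries.

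Without the 4 libraries, 36 pairs had an r of at least 0.9 and formed 18 sets of 49 members. Of these sets, 2 lay on a single chromosome, the one on chromosome 13 above being the larger. A set of 5 members lay on 5 chromosomes: chr13:91655645-91675644, chr1:190507963-190527962, chr2:194039720-194059719, chr6:81134773-81154772 and chr7:133194374-133214373. Their pairwise r was 0.89 to 0.94 without the 4 libraries and 0.81 to 0.96 over all 30. The set was chosen for its correlation, so the values that follow are a description.

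The chromosome 2 member had 9.37, 56.9, 51.0, 11.6 and 7.08 CPM in saline at 10 h and 148, 6.54, 6.96, 75.7 and 6.37 CPM in the high dose at 10 h. It had 6.80, 9.25, 72.9, 11.0 and 18.9 CPM in the low dose at 34 h and 7.98, 9.68, 89.4, 3.78 and 9.34 CPM in the high dose at 34 h. The same 6 libraries were high in the chromosome 13 member, with 41.7, 63.3, 71.2, 64.4, 55.8 and 33.8 CPM against 5.92 to 13.9 CPM in the rest. No library of the low dose at 10 h or of saline at 34 h was among them, and each of the other 4 groups held 1 or 2. Their library numbers in the labels were 37, 38, 56, 59, 48 and 53.

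**Figure D3:**
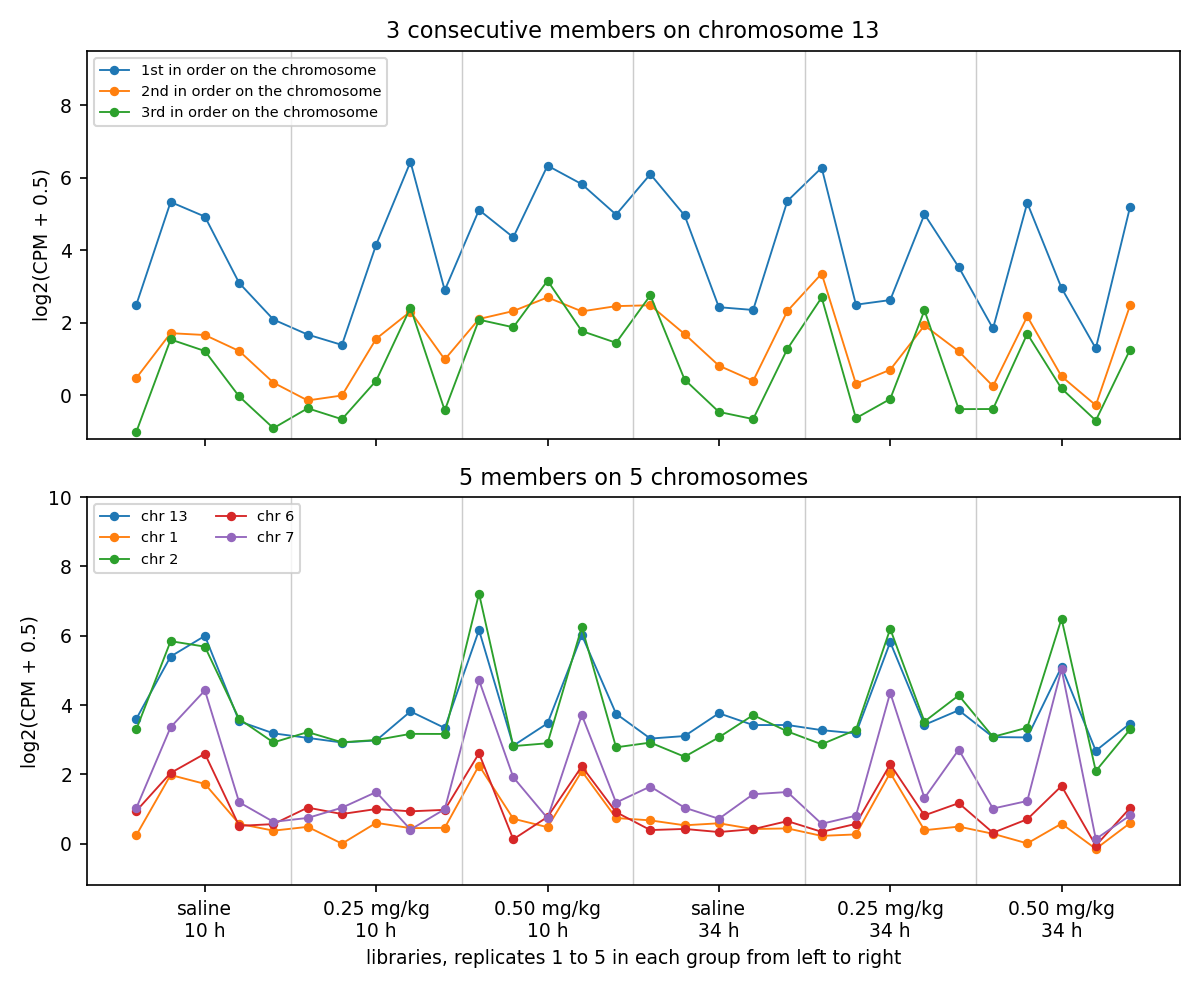
Levels, as log2(CPM + 0.5) on the vertical axis, of 3 consecutive members on chromosome 13 (upper panel) and of 5 members on 5 chromosomes (lower panel) in the 30 libraries, ordered by group. Lines join the libraries of a member only to guide the eye; in the lower panel the same 6 libraries peak in most members.

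Dose and time were compared with edgeR's quasi-likelihood test over all 35237 targets that passed a filter on low counts, all 2347 members among them, with Benjamini-Hochberg adjustment over all 35237 and a threshold of 0.05. The rule used the mean over all libraries, treated ones included, and 107 members (4.56%) averaged under 1 CPM over the 10 saline libraries, so they passed only through treated groups and their dose contrasts are not independent of the rule. No member passed in any of 9 comparisons. Below, a percentage of all targets after a count of called members is the share of the 35237 targets called by the same tool. The libraries of each group at 10 h carry consecutive library numbers in the labels, 31 to 35 for the low dose, 36 to 40 for saline and 56 to 60 for the high dose, so dose and library number cannot be told apart at that time.

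For the low dose against saline at 10 h, 0 members were called (0% of all targets), 177 members (7.54%) had an unadjusted p under 0.05 against 7.82% of all targets, and DESeq2 called 8 (0.236% of all targets). The median log2 fold change was 0.07 for members and 0.01 for all targets. The smallest p belonged to chr5:147011775-147031774. It had 0.954, 1.34, 1.04, 1.23 and 0.990 CPM in saline and 2.03, 3.31, 3.27, 3.05 and 2.02 CPM in the low dose. These groups did not overlap, and the log2 fold change was 1.26 ± 0.20 (SE) with an adjusted p of 0.441 in edgeR's quasi-likelihood test. In the high dose it had 0.976, 11.2, 1.09, 0.905 and 1.30 CPM, high in replicate 2 only.

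For the high dose against saline at 10 h, 0 members were called (0.00568% of all targets) and 182 (7.75%) had an unadjusted p under 0.05 against 10.9% of all targets. DESeq2 called 17 (1.76% of all targets). The smallest p was that of chr10:101484827-101504826, with 13.1, 12.3, 13.7, 16.2 and 12.6 CPM in saline and 19.5, 18.7, 19.7, 19.3 and 26.6 CPM in the high dose. All 5 treated libraries lay above all 5 saline libraries. The log2 fold change was 0.62 ± 0.11 (SE), and the adjusted p by edgeR's quasi-likelihood test was 0.231.

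For the high against the low dose at 10 h, 0 members were called (0% of all targets) and 221 (9.42%) had an unadjusted p under 0.05 against 13.4% of all targets. This was the comparison in which other tools called most. DESeq2 called 39 members (2.92% of all targets) and limma voom with quality weights 26 (2.05% of all targets), of which 14 were shared. Of the 14, 6 were also called in 1 edgeR fit of all 30 libraries. Of the 39, 23 were lower in the high dose, and of the 26, 16. The member of smallest p, chr4:77649926-77669925, had 5.45, 5.93, 7.24, 3.95 and 5.16 CPM in the low dose and 2.80, 2.43, 2.97, 3.02 and 3.15 CPM in the high dose. These groups did not overlap, while saline, with 2.70 to 5.35 CPM, overlapped both. Its log2 fold change was -0.92 ± 0.16 (SE) with an adjusted p of 0.119 in edgeR's quasi-likelihood test. Over 18 alternative fits its adjusted p ran from 7.18e-05 in DESeq2 to 0.302 in edgeR without replicate 3 of the low dose. It was also below the threshold in limma voom with quality weights (0.0351) and in 1 edgeR fit of all 30 libraries (0.0164).

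For the low dose against saline at 34 h, 0 members were called (0.0114% of all targets). An unadjusted p under 0.05 was seen in 178 members (7.58%), against 10.8% of all targets. DESeq2 called 8 (0.914% of all targets). The member of smallest p was chr7:107870769-107890768, with 7.08, 8.90, 8.58, 8.99 and 7.36 CPM in saline and 16.1, 11.7, 14.4, 15.4 and 12.1 CPM in the low dose. The groups did not overlap, and the log2 fold change was 0.76 ± 0.12 (SE) with an adjusted p of 0.0849 in edgeR's quasi-likelihood test. Over the 17 alternative fits its adjusted p ran from 2.46e-06 in DESeq2 to 0.832 in 1 edgeR fit of all 30 libraries, and it was also below the threshold with no filter on low counts (0.0406) and in an edgeR fit of the intervals alone (0.0209). At the high dose it had 15.6, 7.48, 9.89, 7.72 and 8.16 CPM, which overlapped saline.

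For the high dose against saline at 34 h, 0 members were called (0% of all targets) and 72 (3.07%) had an unadjusted p under 0.05 against 4.47% of all targets. DESeq2 called 3 (0.119% of all targets). The member of smallest p, chr14:22622922-22642921, is 1 of the 107, with a mean of 0.791 CPM over the saline libraries, so its values are a description. It had 0.719, 0.500, 0.426, 0.703 and 0.495 CPM in saline and 12.1, 5.60, 4.39, 3.07 and 1.33 CPM in the high dose. The log2 fold change was 3.17 ± 0.52 (SE), with an adjusted p of 0.354 in edgeR's quasi-likelihood test. Over 21 alternative fits the adjusted p ran from 5.61e-07 in DESeq2 to 1 in edgeR within library numbers 51 to 55. The rule used the treated levels of this member, so neither the adjusted p nor its range is a test of the dose.

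At the low dose at 34 h the chromosome 14 member had 1.60, 2.04, 1.86, 13.5 and 2.20 CPM. Both treated groups lay wholly above saline at 34 h. At 10 h it had 0.755, 2.56, 0.722, 0.755 and 0.269 CPM in saline, 15.9, 26.1, 7.65, 1.26 and 0.718 CPM at the low dose and 5.77, 17.0, 1.54, 2.0003 and 1.44 CPM at the high dose. There the treated groups overlapped saline, with the highest levels in 3 libraries of the low dose.

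**Figure D4:**
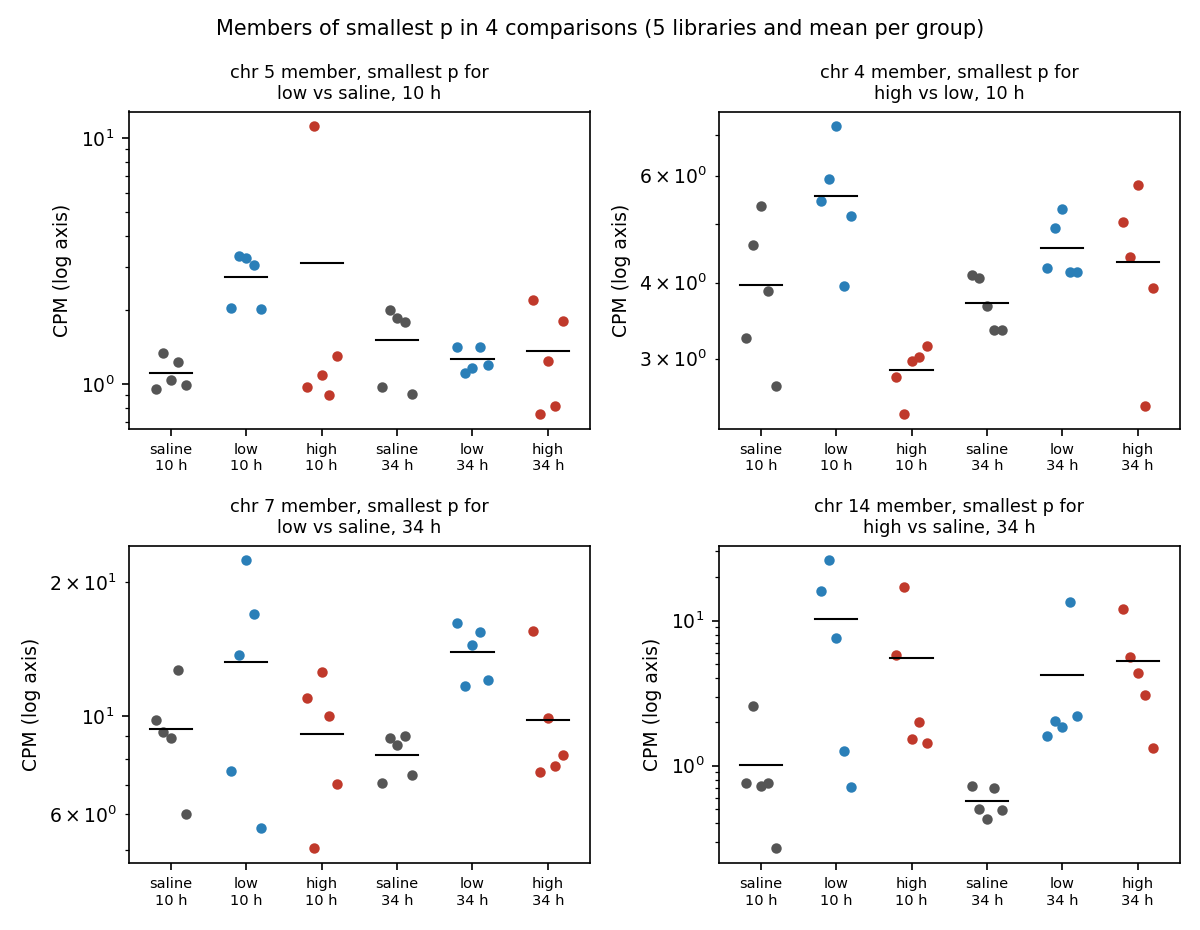
Levels (vertical axis, CPM on a log axis) of 4 members, on chromosomes 5, 4, 7 and 14, in the 5 libraries of each group (points) with the group mean (line). Each is the member of smallest p in the comparison named above its panel, and none passed the threshold. The chromosome 14 member lies above saline at 34 h in all 10 treated libraries of that time. Its mean over the saline libraries was 0.791 CPM, so it reached the rule's limit only through treated animals and is shown as a description.

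The libraries of the high dose and of saline at 34 h have library numbers in 2 ranges. The median log2 fold change of members between these groups was -0.09 over all libraries and 0.02 without replicate 4 of the high dose. Within library numbers 41 to 45 it was 0.04, and within 51 to 55, where replicate 4 lies, it was -0.20. The median over all targets was -0.03.

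For the high against the low dose at 34 h, 0 members were called (0% of all targets) and 72 (3.07%) had an unadjusted p under 0.05 against 3.03% of all targets. DESeq2 called 1 (0.0114% of all targets). The median log2 fold change was -0.14, and -0.02 without replicate 4 of the high dose. The smallest p was that of chr10:36533039-36553038, with 28.6, 19.3, 20.4, 24.03 and 23.96 CPM at the low dose and 15.5, 14.4, 9.22, 6.82 and 11.2 CPM at the high dose. These groups did not overlap. The log2 fold change was -1.04 ± 0.20 (SE), and the adjusted p in edgeR's quasi-likelihood test was 0.999.

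Between saline at 34 h and at 10 h, 0 members were called (0.00284% of all targets). An unadjusted p under 0.05 was seen in 115 members (4.90%), against 7.58% of all targets. DESeq2 called 2 (0.233% of all targets). The smallest p was that of chr14:46658491-46678490. It had 16.7, 21.1, 18.1, 18.5 and 21.2 CPM at 10 h and 26.6, 25.8, 29.1, 25.8 and 28.3 CPM at 34 h, with no overlap. The log2 fold change was 0.51 ± 0.08 (SE) and the adjusted p by edgeR's quasi-likelihood test was 0.245. At the high dose at 10 h this member had 35.2, 26.1, 33.4, 36.7 and 24.1 CPM, also above all saline libraries of that time.

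Neither dose effect was shown to differ between the times. For the low dose 0 members were called (0% of all targets), with 115 (4.90%) at an unadjusted p under 0.05 against 5.64% of all targets. DESeq2 called 3 (0.0596% of all targets). The smallest p was again that of chr5:147011775-147031774, whose low-dose effect at 34 h minus that at 10 h was -1.52 ± 0.31 (SE) on the log2 scale, with an adjusted p of 0.666 in edgeR's quasi-likelihood test. For the high dose 0 members were called (0% of all targets), with 126 (5.37%) at an unadjusted p under 0.05 against 10.1% of all targets. DESeq2 called 2 (0.312% of all targets). There chr17:42827587-42847586 had the smallest p, with a difference of -0.70 ± 0.17 (SE) and an adjusted p of 0.339 in edgeR's quasi-likelihood test. Its levels stayed between 4.13 and 7.70 CPM in all 30 libraries. Except in the high against low comparison at 10 h, limma voom with quality weights called 0 members too. DESeq2 called the member of smallest p in each of the 9 comparisons, and edgeR's quasi-likelihood test with its main settings called it in none. Other edgeR settings did call it in some comparisons. The fit of intervals alone did so for the low dose against saline at 10 h and at 34 h. For high against low at 10 h, 1 fit of all 30 libraries did so. The cause of these differences was not tested.

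The share of members whose groups did not overlap was near or below that of all targets in these 7 comparisons, with no test of the difference. At 10 h, 14 members lay wholly above saline at the low dose (0.675% of all targets did, 0.597% of members) and 8 below (0.451% and 0.341%). For the high dose the members were 19 above (1.39% of all targets, 0.810% of members) and 13 below (1.27% and 0.554%). High against low at 10 h gave 15 above (1.25% and 0.639%) and 35 below (1.54% and 1.49%).

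At 34 h, 26 members lay wholly above saline at the low dose (1.31% of all targets, 1.11% of members) and 4 below (0.650% and 0.170%). For the high dose the members were 4 above (0.534% of all targets, 0.170% of members) and 8 below (0.383% and 0.341%). High against low gave 3 above (0.201% and 0.128%) and 2 below (0.238% and 0.0852%). Saline at 34 h against 10 h gave 7 above (0.536% and 0.298%) and 9 below (0.789% and 0.383%). Each member share was below the share of all targets, in some cases narrowly (0.341% against 0.383%), and several shares rest on few members.

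**Figure D5:**
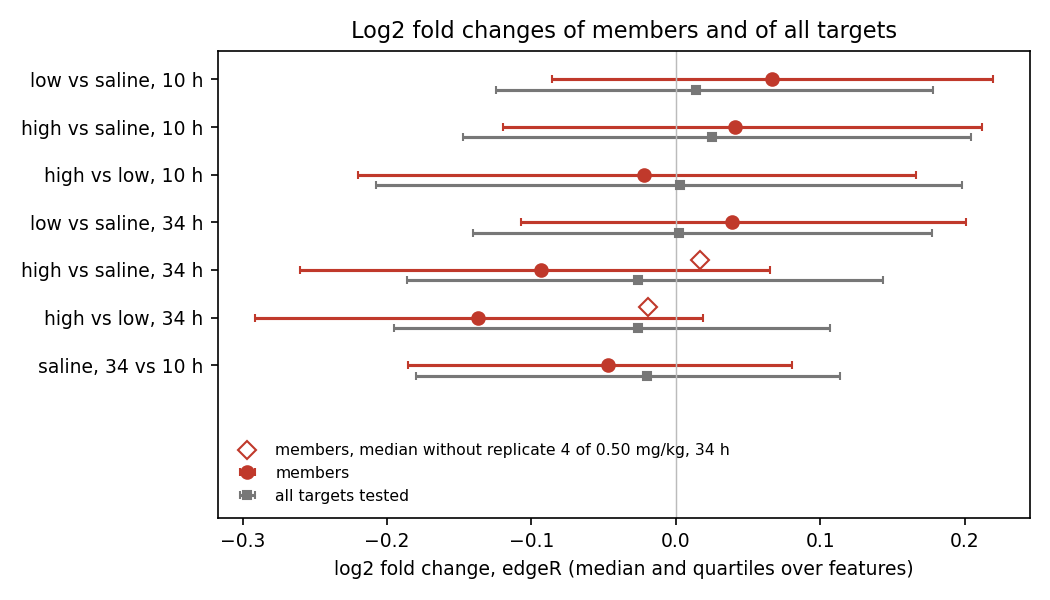
Log2 fold changes from edgeR (horizontal axis) in 7 comparisons, as the median and quartiles over the members and over all 35237 targets tested. Open diamonds are the member medians without replicate 4 of 0.50 mg/kg at 34 h, which move from -0.09 to 0.02 and from -0.14 to -0.02.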

How the data were processed

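RNA of 30 rat kidneys was sequenced in 30 libraries, each a sample of its own with 1 deposited table of 40071 Ensembl transcripts and 25095 genomic intervals. Per the file headers, the deposited tables give an estimated count and a TPM value for each target. Per the submitters' processing notes, they come from kallisto 0.42.2 and build Rnor 6.0. Transcript annotation, kallisto's options and how intervals were selected were not stated in the sources used. Deposited TPM values divide the authors' estimated counts by effective length and keep no depth.

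Members and lists were chosen with earlier results of these data known. CPM used transcript totals, and log2 values a pseudocount of 0.5 CPM. No sample columns were left unmapped. Estimated counts were rounded and tested with edgeR 4.0.16 (quasi-likelihood, filterByExpr, TMM factors from transcripts, only the groups compared, Benjamini-Hochberg over all targets kept), checked on simulated counts. DESeq2 1.42.0 and limma 3.58.1 were alternatives, in R 4.3.3. Tables and correlations used Python 3.11.15. The planned definition of neighbours as touching intervals fitted no pair, so consecutive intervals were used instead, a choice made after seeing the data. Named intervals are those of highest and lowest level, at the limits, of smallest p in each comparison, in the longest runs, in the most and least correlated consecutive pairs, of largest and smallest SD and with the most extreme single library. The 2 covarying sets, the fourth member of the chromosome 9 run and the member of highest CPM in any library were added after their values were seen. Spread is over animals, 1 library each.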

Additional observations from a re-analysis of the deposited data

Results flagged for a closer look

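In 41 of 306 groups of 5 libraries examined, for the summed level and the 50 named members, the highest or lowest library lay so far from the other 4 that its gap exceeded Dixon's 95% limit of 0.71 of the range. Chance flags about 1 group in 20, but several of these members were named for a large SD, an extreme library, a high CPM or covariation, so the number of flags is partly fixed by that choice. The flagged values fall in all 6 groups, saline included, and their cause was not tested.

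In replicate 4 of the high dose at 34 h the summed level was 6870 CPM, chr10:95436895-95456894 had 14.6 CPM and chr7:23090484-23110483 had 1.39 CPM, all low, while chr3:102594467-102614466 had 316 CPM, high. The chromosome 3 member was also high in replicate 4 of saline at 10 h, at 188 CPM, and in replicate 3 of saline at 34 h, at 81.5 CPM.

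Replicate 3 of the high dose at 34 h was high in 7 members: chr13:91655645-91675644 with 33.8 CPM, chr16:48262671-48282670 with 4.26 CPM, chr1:204913277-204933276 with 21.4 CPM, chr2:194039720-194059719 with 89.4 CPM, chr6:11064969-11084968 with 74.2 CPM, chr7:133194374-133214373 with 32.4 CPM and chr8:100191733-100211732 with 32.9 CPM. Replicate 3 of the low dose at 34 h was high in chr13:91655645-91675644 with 55.8 CPM, chr1:190507963-190527962 with 3.63 CPM, chr2:194039720-194059719 with 72.9 CPM, chr6:81134773-81154772 with 4.39 CPM and chr7:133194374-133214373 with 19.96 CPM. These are the 5 members on 5 chromosomes that varied together.

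Replicate 2 of the high dose at 10 h was high in chr14:22622922-22642921 with 17.0 CPM, chr4:61736464-61756463 with 55.9 CPM, chr5:147011775-147031774 with 11.2 CPM and chr8:100191733-100211732 with 88.5 CPM. Replicate 3 of that group had 8.47 CPM for chr13:71772479-71792478 and 12.9 CPM for chr1:12989291-13009290. Replicate 5 had 26.6 CPM for chr10:101484827-101504826 and 9.51 CPM for chr20:20058715-20078714.

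In the low dose at 10 h, replicate 4 had 86.2 CPM for chr13:71556080-71576079, 4.85 CPM for chr13:71772479-71792478 and 12.8 CPM for chr1:12989291-13009290. In the low dose at 34 h, replicate 1 had 32.9 CPM for chr10:101484827-101504826 and 9.75 CPM for chr13:71626327-71646326. Replicate 4 had 13.5 CPM for chr14:22622922-22642921, and replicate 5 was low in chr9:43545865-43565864 with 41.4 CPM.

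Among saline libraries at 10 h, replicate 2 had 2.56 CPM for chr14:22622922-22642921, replicate 3 had 2.71 CPM for chr8:100191733-100211732 and a low 15.1 CPM for chr4:10206753-10226752, and replicate 5 had 40.0 CPM for chr12:22613123-22633122. Among those at 34 h, replicate 1 had 1.42 CPM for chr9:49069190-49089189. Replicate 2 had 2.41 CPM for chr20:19938305-19958304 and a low 1.58 CPM for chr12:22613123-22633122, and replicate 5 had 1.07 CPM for chr6:81134773-81154772.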

How the results depend on the processing

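No paired analysis was possible because the labels give no replicate numbers that groups share. Of 74 alternative counts of called members, 59 stayed at 0, and the cause of the others was not tested. DESeq2 called 8, 17, 39, 8, 3, 1, 2, 3 and 2 members in the order of the comparisons in the text. For high against low at 10 h, limma voom with quality weights called 26, 1 fit of all 30 libraries 7 and the fit without the 4 libraries set apart 1. The fit of intervals alone called 1 member for low against saline at 10 h and 1 at 34 h, and no filter on low counts 1 at 34 h. Leaving out 1 library gave 0 to 1 for those 3 comparisons: 1 without replicate 4 of the low dose or without replicate 2 of the high dose at 10 h, and without replicate 1 of the low dose at 34 h. It gave 0 for the other 6. In all, the 3 fits that left out 1 library and called 1 member called 5, 88 and 3 targets, in that order. Shares of all targets called in the other edgeR settings are not given here, so those counts are not read as particular to the members.

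Every log2 fold change named as of smallest p kept its sign in the alternatives run. The median correlation of consecutive members was 0.11 with division by the member total, 0.22 as Spearman's rho, 0.33 for members of at least 3 CPM and 0.15 without the 4 libraries, and 0.16 to 0.31 leaving out 1 library. On different chromosomes it was 0.014 with that division, 0.147 as rho, 0.0774 without the 4 libraries, and 0.0686 to 0.215 leaving out 1. Summed levels relative to saline ranged, leaving out 1 library, over 102% to 107% and 101% to 104% for the low and high dose at 10 h, and 103% to 107% and 94.0% to 104% at 34 h. Saline at 34 h was 95.9% to 98.9% of that at 10 h. The alternative on members with whole counts was not run, since 1 member has them in every library.

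Interval counts shared with other targets limit these levels. The median member had 65.4 counts per library.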
